A study of Homo sapiens with 9 samples.

Results

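RHOB, SOWAHC, MGAT2, JUN, JUND and CEBPB are 6 protein-coding genes made of a single exon, and their sites in the 3 deposited lists of N6-methyladenosine (m6A) positions are described here. A site was assigned to a gene when its position and strand fell within the hg19 window of that gene. The genes were selected on the sites that earlier work on these same lists had shown, so the number, score and recurrence of their sites are a description and carry no test. The windows held 16 different positions of the 4429 in all lists together, namely 15 of the 3755 control sites, 4 of the 482 sites of hairpin 1 and 5 of the 697 sites of hairpin 2. In control 5 of the 6 genes had a site, with hairpin 1 it was 2 genes and with hairpin 2 it was 3, and JUN had none in any list.

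The cells were HepG2, an established line from a human hepatocellular carcinoma, infected with lentivirus and selected with puromycin so that all groups stably carried an shRNA. The control group carried a non-specific shRNA (shCtrl), and the other groups carried shSETD2#1 or shSETD2#2, called hairpin 1 and hairpin 2 here. The labels give 3 replicates for each of the shRNAs, but each list stands for all replicates of its shRNA, and the values below therefore come without replicate errors. The series title speaks of miCLIP, in which an m6A antibody is crosslinked to RNA and C-to-T changes in the reads mark the crosslink, whereas the sample titles speak of m6A-seq and the protocol mentions no crosslinking. The sites are therefore called m6A sites only in the sense of the lists' own names. Transcript levels were not analysed here, so the knockdown of SETD2 and the liver identity of the cells rest on the labels.

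m6A is written on mRNA during transcription by a complex built around METTL3 and METTL14, mostly at a short consensus in long exons and near stop codons. Exon junction complexes, which are deposited where introns were removed, keep the methyltransferase away from nearby RNA, and transcripts of genes without introns have no such junctions. SETD2 is the enzyme that places trimethylation on lysine 36 of histone H3 in gene bodies, a mark that METTL14 can bind, and this mark is known to be weaker on genes without introns, since splicing promotes it. Many short-lived regulatory transcripts come from intronless genes, the immediate early transcription factors among them. The 6 genes have different roles. RHOB is a small GTPase of endosomes, SOWAHC is an ankyrin-repeat protein, and MGAT2 is the Golgi enzyme that adds the N-acetylglucosamine needed for complex N-glycans. JUN and JUND are AP-1 transcription factors, and CEBPB is a liver-enriched transcription factor of the acute-phase response.

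Each list gives a score for each site, a whole number of at least 3 that is read here as the number of reads over the site. The number of changed (C-to-T) reads was reconstructed from the order of the site numbers, and the background rate of changed reads fitted in that step was 1.57% for the control list, 1.43% for that of hairpin 1 and 1.00% for that of hairpin 2. Positions are 1-based in hg19, with the start and end of a site at the same base, and every site is exonic because the genes have 1 exon. Whether a site is in coding sequence or a UTR was not analysed here, and the sequences around the sites were not used here. Shares have 95% exact Clopper-Pearson intervals, which cover counting error only, because the reads carry no molecular identifiers and may repeat a molecule. The depth of the libraries was not used here, so scores are not scaled between lists. Summed over all sites, the scores came to 256360 for control and to 23420 and 51597 for the hairpins.

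**Figure D1:**
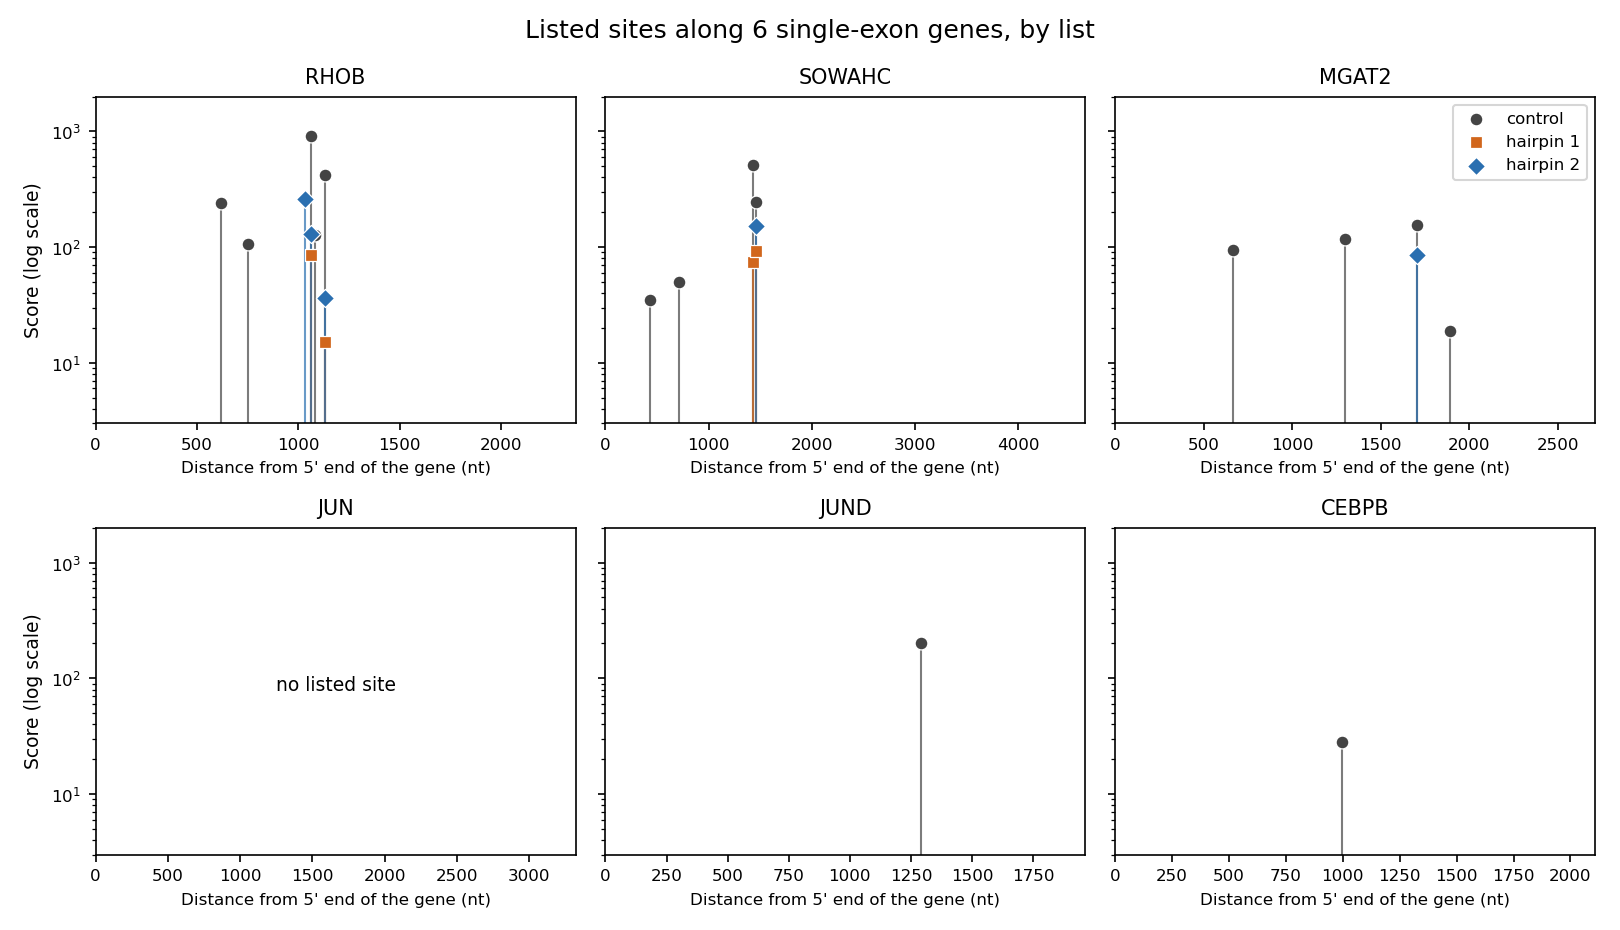
Each panel is 1 gene, with the distance from the 5' end of its window in nt on the x axis and the score on a log scale on the y axis; circles are control sites, squares hairpin 1 and diamonds hairpin 2, each with a line down to the lowest score of 3. RHOB, SOWAHC and MGAT2 hold 13 of the 15 control sites and all knockdown sites, and the JUN panel is empty.

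RHOB carried the most sites of the 6 genes in control, among them the control site with the highest score. Its window on the plus strand of chromosome 2, from 20646835 to 20649201, is 2367 nt long and held 5 control sites, or 2.11 per kb. The control sites lay 618, 750, 1063, 1080 and 1133 nt from the 5' end, with scores of 239, 107, 908, 126 and 423. The first and last of them were 515 nt apart, and all lay between 26.1% and 47.9% of the way along the gene. The score of 908, at position 20647898, ranked 28th in the control list, and 99.3% of control sites had a lower score.

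The RHOB site at position 20647968, 1133 nt from the 5' end, had by far the most changed reads among the control sites of the 6 genes. Of its 423 reads, between 54 and 56 carried the change, a share between 12.8% and 13.2% with an interval of 9.74% to 16.8%. By site number, which follows the binomial probability, it was 41st of 3755 control sites. Of the 51 nuclear control sites with a score of 423 or more, itself included, 2 had a share at least as high, and for 1 more the bounds allow it. The median share of the 45 such sites with an exact read number was 1.88%.

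The other RHOB control sites had shares close to the fitted control rate of 1.57%. The site with 908 reads, at position 20647898, had 15 changed reads (1.65%, interval 0.927% to 2.71%). At 20647453 the count was 4 of 239 (1.67%), at 20647915 it was 2 of 126 (1.59%) and at 20647585 it was 1 of 107 (0.935%). The fitted rate lay within the interval of each of these 4 sites and below the interval of the site at 20647968. RHOB thus held 1 site with a share well above the rate and 4 that were near it.

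With either SETD2 hairpin, RHOB kept 2 of its 5 control sites, at 20647898 and 20647968. The score at 20647898 went from 908 to 85 with hairpin 1 and to 131 with hairpin 2, a decrease of 10.7-fold and 6.93-fold. The score at 20647968 went from 423 to 15 with hairpin 1 and to 36 with hairpin 2, a decrease of 28.2-fold and 11.8-fold. Both knockdown scores were below control at both sites. At 20647968 only 1 changed read was left in each knockdown list, a share of 6.67% with hairpin 1 (interval 0.169% to 31.9%) and 2.78% with hairpin 2 (interval 0.0703% to 14.5%). The control share of 12.8% to 13.2% lay inside both intervals. A site needs a changed read to be listed, so these are the lowest shares that could be listed at these scores. Whether the share at this site was lower therefore cannot be decided at this depth. At 20647898 the share was 1.65% in control, 4.71% with hairpin 1 (4 of 85 reads, interval 1.30% to 11.6%) and 2.29% with hairpin 2 (3 of 131 reads, interval 0.475% to 6.55%). The control share was again inside both intervals.

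RHOB also had a site with hairpin 2 that the other lists lacked. It was at position 20647867, 1032 nt from the 5' end and 31 nt before the shared site at 20647898. Its 261 reads were the highest score of the 6 genes with hairpin 2, and 4 of them were changed (1.53%, interval 0.419% to 3.88%), against a fitted rate of 1.00% in that list. All RHOB sites of both knockdown lists lay within 101 nt, between 1032 and 1133 nt from the 5' end.

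SOWAHC carried 4 control sites near the start of a long gene. Its window on the plus strand of chromosome 2, from 110371911 to 110376564, spans 4654 nt, so its 4 sites came to 0.859 per kb. They lay 433, 715, 1436 and 1465 nt from the 5' end, the last at 31.5% of the gene, and no site was listed in the 3188 nt beyond it. Their scores were 35, 50, 517 and 245. The pair of deeper sites, at 110373347 and 110373376, was 29 nt apart.

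The C-to-T shares of the SOWAHC sites had overlapping intervals, except for the sites at 110372626 and 110373347, whose intervals were apart. The site at 110372344 had 3 changed reads of 35 (8.57%, interval 1.80% to 23.1%) and the site at 110372626 had 6 of 50 (12.0%, interval 4.53% to 24.3%). Both intervals lay above the control rate of 1.57%. The deeper sites had 11 of 517 (2.13%, interval 1.07% to 3.78%) and 6 of 245 (2.45%, interval 0.904% to 5.25%), and both intervals held the rate. A site needs a changed read to be listed, so a shallow site cannot have a low share.

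After knockdown, only the deep pair of SOWAHC sites was listed. At 110373347 the score was 517 in control and 75 with hairpin 1, or 6.89-fold lower, and the site was not in the list of hairpin 2. At 110373376 it went from 245 to 93 with hairpin 1 and to 153 with hairpin 2, or 2.63-fold and 1.60-fold lower. The order of the pair was not the same in all lists, since the first site had the higher score in control (517 against 245) and the lower one with hairpin 1 (75 against 93). At 110373376 the share was 2.45% in control, 1.08% with hairpin 1 (1 of 93 reads, interval 0.0272% to 5.85%) and 0.654% with hairpin 2 (1 of 153 reads, interval 0.0165% to 3.59%). At 110373347 it was 2.13% in control and 2.67% with hairpin 1 (2 of 75 reads). The control shares lay inside the knockdown intervals at both sites.

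MGAT2 had 4 control sites spread over a longer stretch. Its window on the plus strand of chromosome 14, from 50087489 to 50090199, spans 2711 nt and held 1.48 sites per kb. The sites lay 664, 1297, 1706 and 1891 nt from the 5' end, from 24.5% to 69.8% of the gene, with scores of 94, 118, 156 and 19. Their changed reads numbered 1 (1.06%), 3 (2.54%), 3 (1.92%) and 2 (10.5%). The shallow site at 50089380 had the highest share, with a two-sided interval of 1.30% to 33.1% that held the control rate, as did the intervals of the other 3. Hairpin 1 had no MGAT2 site. Hairpin 2 had 1, at 50089195, where the score was 156 in control and 85 with hairpin 2, or 1.84-fold lower. Its share was 1.92% in control and 1.18% with hairpin 2 (1 of 85 reads, interval 0.0298% to 6.38%).

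The transcription factor genes had few sites or none. JUND, on the minus strand of chromosome 19 from 18390504 to 18392466, had 1 control site at position 18391175, 1291 nt from the 5' end. It held 203 reads, 9 of them changed, a share of 4.43% with an interval of 2.05% to 8.25% that lay above the control rate. CEBPB, on the plus strand of chromosome 20 from 48807120 to 48809227, had 1 control site at 48808118, 998 nt from the 5' end, with 2 changed reads of 28 (7.14%, interval 0.877% to 23.5%). Neither site was in a knockdown list. JUN, on the minus strand of chromosome 1 from 59246463 to 59249785, had no site in any list, although its window of 3323 nt is the second longest of the 6. The nearest control site to it on the same strand was 122128 nt away with a score of 5. A list without a JUN site does not give the number of reads over JUN, so it cannot be told apart whether the transcript was little covered or covered without listed changes.

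No window had a listed site on the opposite strand, and none had a same-strand site just outside it. The nearest same-strand control site was between 25701 nt (JUND) and 2809964 nt (RHOB) from the window. On either strand, the nearest was a minus-strand control site with a score of 3, which lay 590 nt from the SOWAHC window. The sites of the 6 genes were therefore separated from other listed sites of their strand by far more than the length of the genes.

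Sites of the 6 genes were deeper than the usual site of their list. Their median score was 126 against 14 over the control list, 80 against 11 with hairpin 1 and 131 against 15 with hairpin 2. A score of 100 or more was found at 10 of the 15 control sites and at 11.8% of all control sites. The genes were chosen with these lists known, so this depth is a property of the choice. The 15 control sites were 0.399% of the control list (interval 0.224% to 0.658%) and 1.27% of its summed score. The 4 sites of hairpin 1 were 0.830% of that list (interval 0.227% to 2.11%), and the 5 sites of hairpin 2 were 0.717% (interval 0.233% to 1.67%). The control share lay inside both knockdown intervals. By summed score they held 1.14% with hairpin 1 and 1.29% with hairpin 2, so the part of the summed score that these genes took was similar in the 3 lists.

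Recurrence in the knockdown lists is read here against control sites of like depth. Of the 15 control sites, 4 were listed again with hairpin 1, where 5.99% of all control sites were, and 4 with hairpin 2, where 6.50% were. The share for these genes was 26.7% with each hairpin taken alone (interval 7.79% to 55.1%). All recurring sites had control scores of 100 or more, and of the 10 such sites 4 recurred with each hairpin, or 40.0% (interval 12.2% to 73.8%). Of the 420 nuclear control sites with a score of 100 or more, 25.0% recurred with hairpin 1 and 22.1% with hairpin 2. Both values lay inside the interval of the 6 genes. The genes were chosen with these lists known, and several of the 10 sites lie close together in the same gene. The interval is therefore descriptive, and a difference from other deep sites was not tested. With both hairpins, 3 of the 15 sites recurred, namely 2 in RHOB and 1 in SOWAHC, against 2.21% of all control sites. Among sites with scores of 100 or more this was 3 of 10 (interval 6.67% to 65.2%), against 10.7% of deep nuclear control sites, a value inside the interval. None of the 5 sites with scores under 100, in SOWAHC, MGAT2 and CEBPB, was listed again, which allows a share of up to 52.2% by its interval. Of nuclear control sites, 14.1% of those with scores of 20 to 99 and 3.52% of those with scores of 10 to 19 were listed again with either hairpin.

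The 5 control sites listed again with either hairpin had a median score of 423, from 156 to 908. The 10 that were listed with neither had a median of 100.5, from 19 to 239. The median number of changed reads was 11 in the first and 2.5 in the second. The score ranges overlapped, since JUND with 203 reads and the RHOB site at 20647453 with 239 were not listed again while the MGAT2 site with 156 was.

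**Figure D2:**
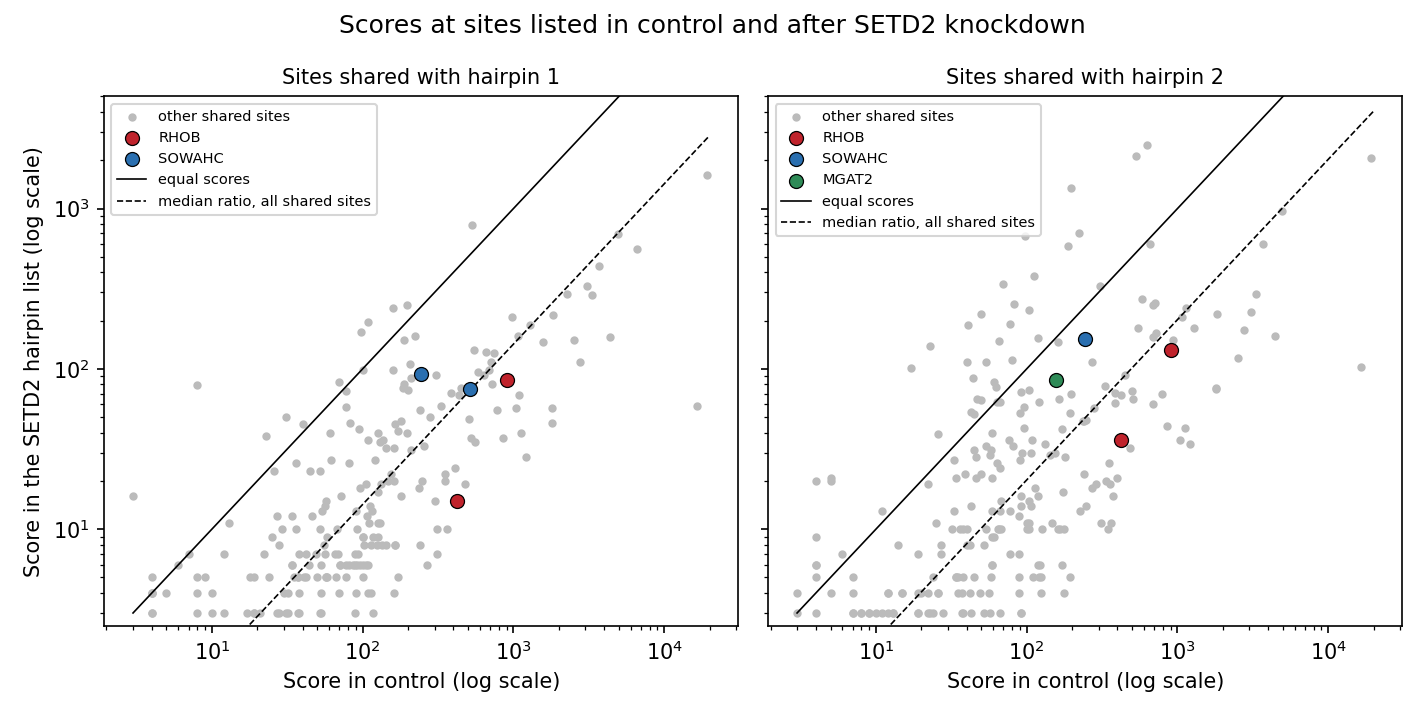
Score in control (x axis) against score with hairpin 1 (left) or hairpin 2 (right), both on log scales, at every site shared by the lists; grey points are other sites, coloured points the sites of RHOB, SOWAHC and MGAT2, the solid line equal scores and the dashed line the median ratio. All coloured points lie below the line of equal scores, and the RHOB site with 423 control reads lies below the dashed line in both panels.

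At each of the shared sites of these genes, the score was lower in the knockdown list than in control. This held at 4 of 4 sites with hairpin 1, where 92.4% of all shared sites had a lower score, and at 4 of 4 with hairpin 2, where 83.6% did. On the log2 scale, the median difference over the 4 sites was -3.10 with hairpin 1, or 8.58-fold lower, and -1.83 with hairpin 2, or 3.57-fold lower. Over all shared sites, of any control score, the medians were -2.81 and -2.30. The medians of the 4 sites thus lay on different sides of the general median for the 2 hairpins. The decrease ranged over the 4 sites from 2.63-fold to 28.2-fold (hairpin 1) and from 1.60-fold to 11.8-fold (hairpin 2). The comparisons share the control list, so their values are given side by side only.

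The 3 sites shared with both hairpins had the same order of ratios in each comparison. The RHOB site at 20647968 had the largest decrease of the 4 with both, and 6.22% of all sites shared with hairpin 1 and 21.3% of those shared with hairpin 2 had a lower ratio. The RHOB site at 20647898 was nearer the middle of all shared sites, with 33.8% and 34.0% of them at a lower ratio. The SOWAHC site at 110373376 had the smallest decrease with both, and 79.6% and 77.9% of shared sites had a lower ratio. The reference here is shared sites of any control score, so these shares are not matched for depth. The scores at the same base in control enter both ratios.

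Summed scores were lower in both knockdown lists for every gene with control sites. Whole-list totals also fell, from 256360 (control) to 23420 (hairpin 1) and 51597 (hairpin 2). The 6 genes together made up 1.27%, 1.14% and 1.29% of these totals, in the same order. As a group they thus dropped about as much as their lists. The RHOB sum was 1803 over 5 control sites (mean 360.6), 100 over 2 sites with hairpin 1 and 428 over 3 sites with hairpin 2 (mean 143), or 18.0-fold and 4.21-fold lower. SOWAHC had 847 over 4 sites (mean 212), 168 over 2 (mean 84.0) and 153 over 1, or 5.04-fold and 5.54-fold lower. MGAT2 had 387 over 4 sites (mean 96.8) in control and 85 over 1 site with hairpin 2, or 4.55-fold lower, and no site with hairpin 1. JUND and CEBPB had sums of 203 and 28 in control and no site with either hairpin. Of the RHOB sum with hairpin 2, 261 came from the site at 20647867 that control lacked. Sums over listed sites move with how many sites are listed, and bases without a listed site enter no sum.

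**Figure D3:**
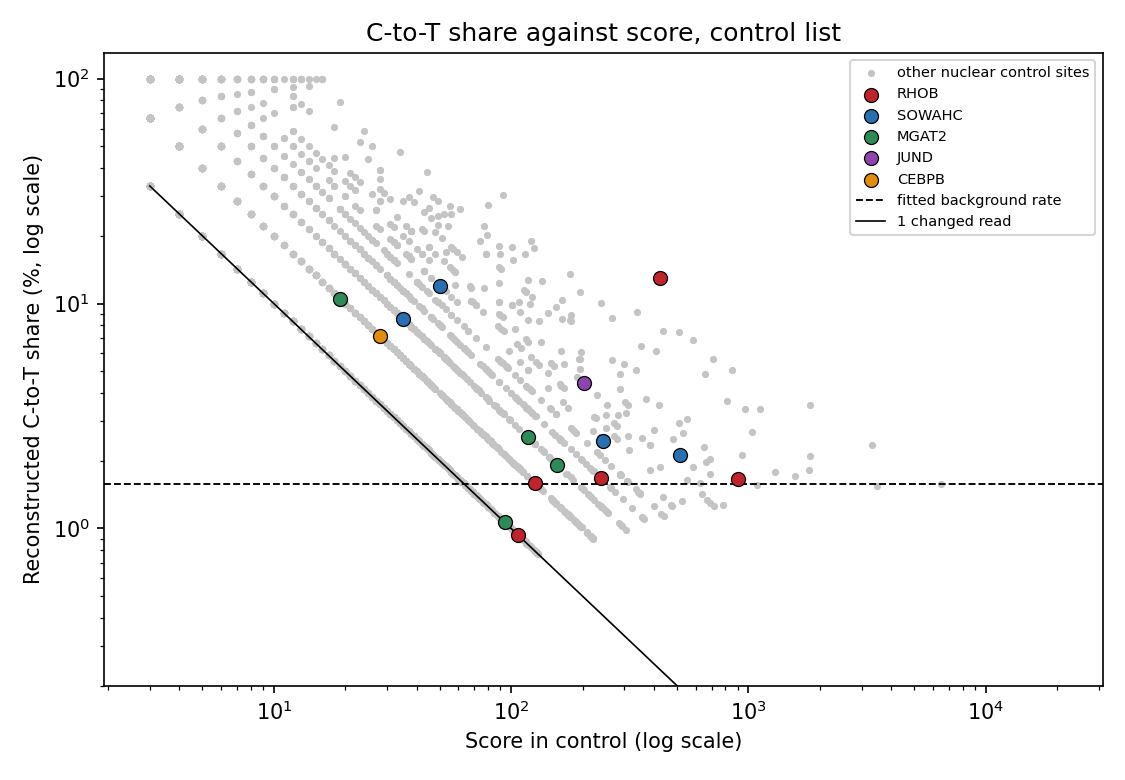
Reconstructed C-to-T share in percent (y axis) against score (x axis), both on log scales, for nuclear control sites with an exact read number (grey) and the control sites of the 5 genes that have one (coloured); the RHOB site with 423 reads is drawn at the middle of its bounds. The dashed line is the fitted rate of 1.57% and the solid line the share given by 1 changed read; the RHOB site with 423 reads stands above all other coloured points of similar depth.

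The shares of the control sites were set against the fitted rate. A one-sided, unadjusted binomial probability of as many changed reads or more was computed at that rate, so it can fall under 0.05 where the two-sided interval still holds the rate. It was under 0.05 at 5 of the 15 control sites, against 50.6% of all control sites, and at 2 of the 10 with scores of 100 or more, against 26.9% of nuclear control sites of that depth. The 5 were 1 site in RHOB (20647968), 2 in SOWAHC (110372344 and 110372626), 1 in MGAT2 (50089380) and the JUND site. A share under the rate was found at 2 of the 15, against 7.67% of all control sites, and at 1 of the 10 deep ones, against 40.7% of deep nuclear sites. With exact read numbers, the median share was 2.29% over 14 control sites of these genes and 12.5% over the control list. Among sites with scores of 100 or more the medians were 1.92% over 9 sites and 1.83% over 400 nuclear sites. Sites without an exact read number are left out of these medians, among them the RHOB site at 20647968 with its share of 12.8% to 13.2%. With that site included, the median over the 15 control sites was 2.45% by either bound.

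Among the 10 control sites of these genes with scores of 100 or more, 1 of the 2 with a binomial probability under 0.05 and 4 of the 8 others were listed again with either hairpin. The first was the RHOB site at 20647968, and the 4 others had shares between 1.65% and 2.45%. Of the 420 nuclear control sites of that depth, 36.4% were listed again with either hairpin. In the knockdown lists, a single changed read lay under 2 of the 4 sites with hairpin 1 and 3 of the 5 with hairpin 2, where the lists as a whole had 62.4% and 58.7%. A binomial probability under 0.05 at the list's own rate was found at 1 of the 4 sites with hairpin 1, the RHOB site at 20647898, against 34.2% of that list, and at 0 of the 5 with hairpin 2, against 46.5% of that list.

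The listed positions are given here by their distance from the gene ends. Sites of other genes were not placed in this way, so there is no reference for these distances. The 15 control sites lay between 433 and 1891 nt from the 5' end, and the closest to a 3' end was the JUND site at 671 nt from it. Their median place was 44.9% of the gene length, 12 of them lay before the midpoint of their gene and the farthest lay at 69.8%. Hairpin 1 sites lay between 30.9% and 47.9% of the gene, and hairpin 2 sites between 31.5% and 63.0%. The gene ends come from the hg19 windows. The lengths in RefSeq's GRCh38 table were the same for RHOB and CEBPB and between 27 nt (SOWAHC) and 66 nt (JUN) shorter for the others, which is small beside these distances.

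RHOB, SOWAHC and MGAT2 each formed 1 group of sites, when neighbours on a strand were joined at gaps of at most 1000 nt. The RHOB group of 5 was matched or exceeded by 6 of the 3365 control groups, itself included, or 0.178%. The groups of 4 in SOWAHC and MGAT2 were matched or exceeded by 20 groups, or 0.594%. The largest control group held 10 sites. With hairpin 1, RHOB and SOWAHC each had a group of 2, a size that 22 of 446 groups reached. With hairpin 2, RHOB had a group of 3, a size that 8 of 656 groups reached. Joined at gaps of up to 200 nt instead, the largest control group in RHOB held 3 sites, and those in SOWAHC and MGAT2 held 2 each, a size that 4.59% of the 3572 control groups reached.

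Neighbouring sites could differ in score over short distances. Of the 10 gaps between neighbouring control sites within a gene, 2 were of 30 nt or less. The RHOB sites at 20647898 and 20647915, 17 nt apart, had 908 and 126 reads, a 7.21-fold difference. The SOWAHC pair at 29 nt differed by 2.11-fold. Over all 49 such pairs of nuclear control sites the median difference was 1.16-fold, and 8.16% of pairs differed at least as much as the RHOB pair. How the score was counted is not given in the sources used here.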

How the data were processed

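Site lists of 3 shRNAs, 9 samples in all, were used. Build hg19, Bowtie 1.1.2, cutadapt 1.13 and FastQC 0.11.5 appear in the submitters' processing notes, and the deposited site names carry the tool rbsSeeker. The score in each list is the authors' deposited value, while its definition, with the filters and the pooling of replicates, is not given in the sources used here. Gene windows, members and lists were chosen with earlier results of these data known. All 6 members are named and every site is given. Running numbers were sorted, and a background rate was sought at which whole numbers of changed reads give binomial tails that never fall. Such rates placed all sites in order, with 1 possible number at 98.6%, 97.7% and 97.0% of sites. The calculation was tested on simulated lists sorted by such binomial tails, with a part of the control scores. That test checks the calculation and not how the deposited sites were numbered. The read numbers are an inference, since no deposited column holds them. No test between shRNAs was made, because each has 1 pooled list, and the binomial probabilities per site are one-sided, unadjusted and descriptive. The other genes planned for comparison need hg19 coordinates and were not analysed. Gene lengths came from RefSeq (GRCh38.p14), where 6 of 6 symbols matched. Alternatives changed the minimum score, windows, merging, matching, rates and gaps. Python 3.11.15, numpy 2.4.6, scipy 1.17.1, pandas 2.3.3 and matplotlib 3.10.9 were used.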

Additional observations from a re-analysis of the deposited data

How the results depend on the processing

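Of 53 alternative values, 50 stayed within 1.5 times the reported value and in the same direction. The exceptions were the largest groups of control sites when sites were joined at gaps of up to 200 nt, which went from 5 to 3 sites in RHOB and from 4 to 2 in both SOWAHC and MGAT2. With minimum scores of 5 or 10, windows extended by 200 nt, or merging within 10 nt, the counts of sites stayed at 15, 4 and 5. Matching within 50 nt gave 5 control sites with hairpin 1 and 6 with hairpin 2, against 4 each at the same base. Over all control sites, the shares matched within 50 nt were 6.55% and 7.19%. The added control sites lay 17 nt (RHOB) and 29 nt (SOWAHC) from knockdown sites already matched at the same base. The RHOB site at 20647867, listed with hairpin 2 only, lay 31 nt from the control site at 20647898. It was therefore also within 50 nt of a control site. No paired analysis was possible because each shRNA has 1 pooled list for its replicates, and for the same reason no replicate could be left out. Depth limits the knockdown shares, since 5 of the 9 knockdown sites rest on 1 changed read, the fewest that a listed site can have.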
